A study of Mus musculus with 31 samples.

Results

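Motile cilia are the beating hairs that cover the ependymal cells lining the brain's ventricles. The genes described here bear names of gene families linked to these cilia. Not every one of these genes need serve motile cilia or be expressed in ependyma. They were chosen by name: gene symbols of the count table that begin with Cfap, Dnah, Dnaaf, Drc or Rsph followed by a digit, together with Foxj1, and that had at least 10 counts in at least 13 libraries. Of 48795 genes in the table, 58 names fitted and 52 genes met the count threshold: 22 Cfap genes, 15 Dnah genes, 7 Rsph genes, 4 Dnaaf genes, 3 Drc genes and Foxj1. In all, 19781 genes of the table met that threshold. The libraries came from mouse brain, 13 from a control group and 18 from a group given deltamethrin, an insecticide of the pyrethroid class, whose target is the voltage-gated sodium channel. Total RNA was taken from aliquots of homogenised brain, so ependyma contributed together with every other brain cell type. The labels name the agent and the tissue but not strain, sex, litter, age, dose, route or batch, and nothing in them says that the samples came from separate animals, so the p-values measure only the spread between these samples, part of which may be technical.

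As background, a motile axoneme is a ring of microtubule doublets around a central pair. Dynein motors (the heavy chains are the Dnah genes) drive its bending, and are assembled beforehand in the cytoplasm by the Dnaaf factors. Radial spokes (Rsph) and the nexin-dynein regulatory complex (Drc) pass signals between the central pair and the dyneins, and the Cfap proteins are a mixed class of axonemal, basal body and cilium-associated proteins. Foxj1 is the transcription factor that switches on the motile cilium programme, and RFX factors act with it through a DNA element called the X-box. In the brain, ependymal cilia help to move cerebrospinal fluid, which the choroid plexus secretes.

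Promoters are shown because the X-box, where present, is the element that RFX factors are known to bind. RefSeq promoters on GRCm38.p6, covering 250 bases before to 50 bases after each start, were present for 42 of the 52 genes. The X-box was searched on both strands by a 14-base consensus that fixes 7 of its positions, and was found in 12 of the 42 genes (28.6%), against 808 of 27025 gene symbols (2.99%) over windows of the same length. In 10 of those 12 genes its first base lay within 50 bases of the start. The 12 genes were Cfap36, Cfap44, Cfap45, Cfap52, Cfap57, Cfap70, Cfap161, Cfap221, Dnaaf2, Dnaaf3, Dnah17 and Drc7. A stricter consensus that fixes 13 positions was in none of the 42 and in 0.0851% of all symbols. The RFX half-site GTTGCC, which can lie inside an X-box and did so in 3 genes, was in 14 genes (33.3%) against 14.1% of all symbols. The forkhead motif TGTTTAC, the type of sequence that FOXJ1 reads, was in 3 genes (7.14%) against 4.05% of all symbols. A match says only that these letters are in the window. Of the promoters whose whole X-box lay before the start, the 6 below are those whose genes followed the other cilium genes most closely from library to library. Each is given as the 250 bases before the start, 5′ to 3′ on the gene's strand, with the X-box in capitals.

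Cfap44: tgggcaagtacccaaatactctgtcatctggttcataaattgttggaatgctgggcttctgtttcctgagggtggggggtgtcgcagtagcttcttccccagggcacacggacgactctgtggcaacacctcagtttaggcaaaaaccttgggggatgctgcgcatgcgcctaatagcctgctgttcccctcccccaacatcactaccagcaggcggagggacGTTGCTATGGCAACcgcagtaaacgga
Dnah17: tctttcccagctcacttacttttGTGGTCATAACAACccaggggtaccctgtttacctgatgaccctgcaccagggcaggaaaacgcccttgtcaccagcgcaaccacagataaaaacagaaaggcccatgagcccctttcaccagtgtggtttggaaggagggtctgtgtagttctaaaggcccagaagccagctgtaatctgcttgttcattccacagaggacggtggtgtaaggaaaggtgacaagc
Cfap161: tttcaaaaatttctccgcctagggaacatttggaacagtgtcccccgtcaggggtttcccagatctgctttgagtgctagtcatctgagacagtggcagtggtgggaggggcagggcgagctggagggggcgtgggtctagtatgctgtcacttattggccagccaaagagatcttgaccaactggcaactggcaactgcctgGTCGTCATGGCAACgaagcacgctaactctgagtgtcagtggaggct
Cfap45: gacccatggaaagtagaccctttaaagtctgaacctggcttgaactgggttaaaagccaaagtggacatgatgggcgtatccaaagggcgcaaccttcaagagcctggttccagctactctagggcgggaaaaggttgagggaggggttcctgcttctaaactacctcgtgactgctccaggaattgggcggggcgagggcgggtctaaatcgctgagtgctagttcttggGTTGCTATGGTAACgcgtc
Cfap52: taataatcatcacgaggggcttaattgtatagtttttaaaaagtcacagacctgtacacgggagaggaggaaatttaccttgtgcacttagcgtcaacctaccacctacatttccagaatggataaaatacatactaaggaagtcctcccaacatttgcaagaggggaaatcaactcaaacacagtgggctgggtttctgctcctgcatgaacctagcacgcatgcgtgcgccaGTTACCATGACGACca
Dnaaf2: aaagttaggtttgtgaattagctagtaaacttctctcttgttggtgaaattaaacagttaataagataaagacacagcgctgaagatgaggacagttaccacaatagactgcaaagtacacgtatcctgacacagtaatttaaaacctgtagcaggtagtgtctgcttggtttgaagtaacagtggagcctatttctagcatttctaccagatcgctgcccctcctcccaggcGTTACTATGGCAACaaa

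Cfap44 lies at chr16:44394549-44394798 on the plus strand, and its X-box began 27 bases before the start. Cfap45 (chr1:172520880-172521129, plus strand) held it at 19 bases and Dnaaf2 (chr12:69198430-69198679, minus strand) at 17 bases before the start. Cfap161 (chr7:83794840-83795089, minus strand) held it at 47 bases before the start. In Cfap52 (chr11:67965643-67965892, minus strand) the element was read on the opposite strand, 16 bases before the start. Dnah17 (chr11:118129220-118129469, minus strand) differed from the other 5, with its match 227 bases before the start.

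The libraries held 17570311 to 38680621 counts, with a median of 30662621. Mitochondrial rRNA took 7.324% to 40.24% of the counts, with a median of 13.97%. Control replicate 2 stood apart: it had the lowest total, the highest mitochondrial rRNA share and the highest mean level of the cilium genes. Some results are also given without it, but not all. Of the 52 genes, 45 had at least 10 counts in all 31 libraries, and 16 had a median count under 50. Rsph6a, a radial spoke gene, was just inside the count threshold (15 libraries, counts of 1 to 19, median 9) but did not pass the expression filter of the test. Cfap53 was just outside the threshold (11 libraries, counts of 1 to 22, median 8).

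Most of the motile cilium genes were at low levels. On the scale of CPM (counts scaled to a common library size) per kilobase of exon, which allows levels of different genes to be set side by side, the median of the 51 tested genes was 0.47 against 2.89 for all 19529 genes tested. Only 7 of the 51 were above the median of all genes, and 36 were under 1. Cfap36, which encodes a protein that binds the small GTPase ARL3, was by far the highest at a level of 29.6 CPM per kb, and it alone made up 24.3% of the summed CPM of the set. The next levels were those of Rsph3b (5.787) and Rsph3a (5.652), which encode a spoke stalk protein, then Cfap20 (5.464), Rsph9 (4.708) and Cfap97 (4.514). Rsph3a and Rsph3b are near-identical copies, so how their reads were shared out is uncertain, and the same holds for Dnah7a, Dnah7b and Dnah7c. Drc1, a structural subunit of the regulatory complex, had 3.157 CPM per kb, Foxj1 2.575 and the assembly factor Dnaaf2 1.839. All 15 dynein heavy chains were under 1 CPM per kb: Dnah1, an inner arm motor, was the highest of them at 0.7345, while Dnah12 was at 0.05792 and Dnah8 at 0.01883. Neighbours in this order, such as Rsph3b, Rsph3a and Cfap20, lay closer together than the spread of a single gene over the 31 libraries, which was 8.85%, 8.05% and 14.9% (coefficient of variation of CPM) for these 3.

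**Figure D1:**
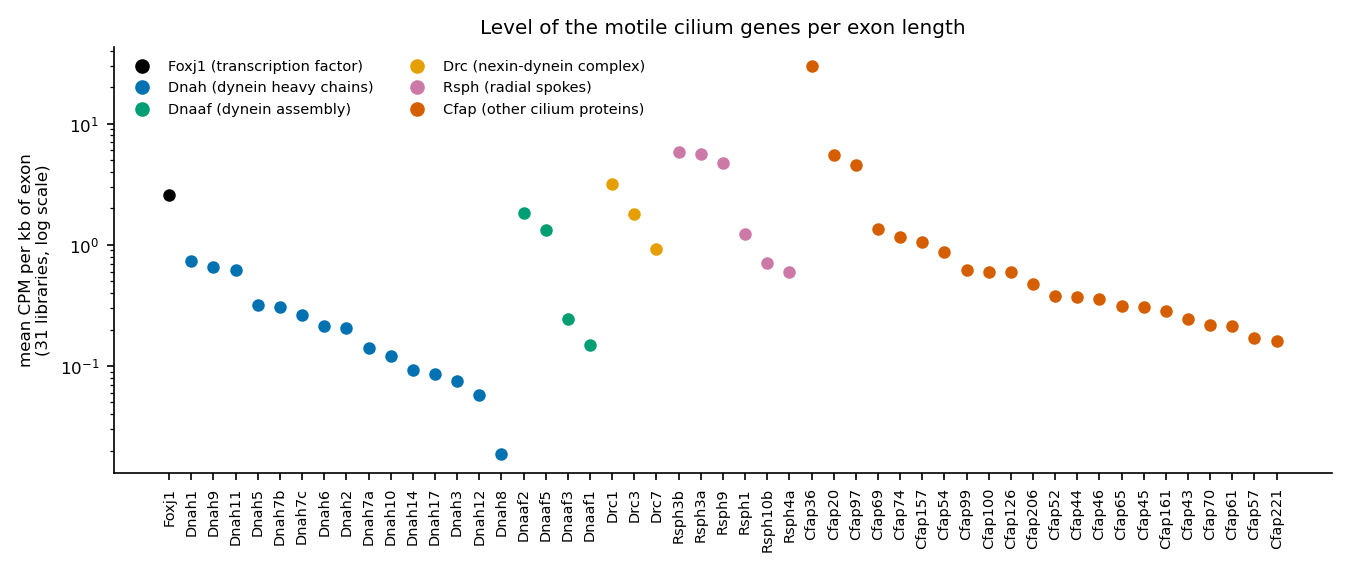
Level of each tested motile cilium gene, in CPM per kb of exon on a log axis, grouped by gene family. Cfap36 stands alone at 29.6, and the dynein heavy chains (Dnah) all lie under 1.

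The first question was whether the motile cilium genes differed between deltamethrin and control. None of the 51 tested genes did at an adjusted p under 0.05 by edgeR's quasi-likelihood test with Benjamini-Hochberg adjustment over all genes. The share of all genes called was also 0%, and DESeq2 and limma voom called none either. The smallest adjusted p among the 51 was 0.8126. At an unadjusted p under 0.05, 3 of the 51 (5.88%) passed, against 853 of all 19529 genes (4.37%). Of these, 2 were higher in deltamethrin, Dnah10 and Cfap46 (2% of all genes were higher), and 1 was lower, Cfap126 (2.37% of all genes were lower). These shares are near the background. The log2 fold changes, deltamethrin over control, were positive in 22 genes and negative in 29, with a median of -0.02 beside 0.001 for all genes, and ranged from -0.36 to 0.30. Over all genes, 9860 were positive and 9663 negative. None of the 51 had groups whose CPM did not overlap (0% of all genes). The approximate 95% interval of the fold change (2.045 standard errors each side) lay within 1.5-fold in 44 of the 51 genes, so larger changes in the tissue average lay outside the interval for most of the set. The 7 wider ones were Cfap57, Cfap126, Cfap161, Cfap221, Dnaaf3, Dnah10 and Dnah12. In bulk RNA, fewer ciliated cells and less RNA per cell cannot be told apart.

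**Figure D2:**
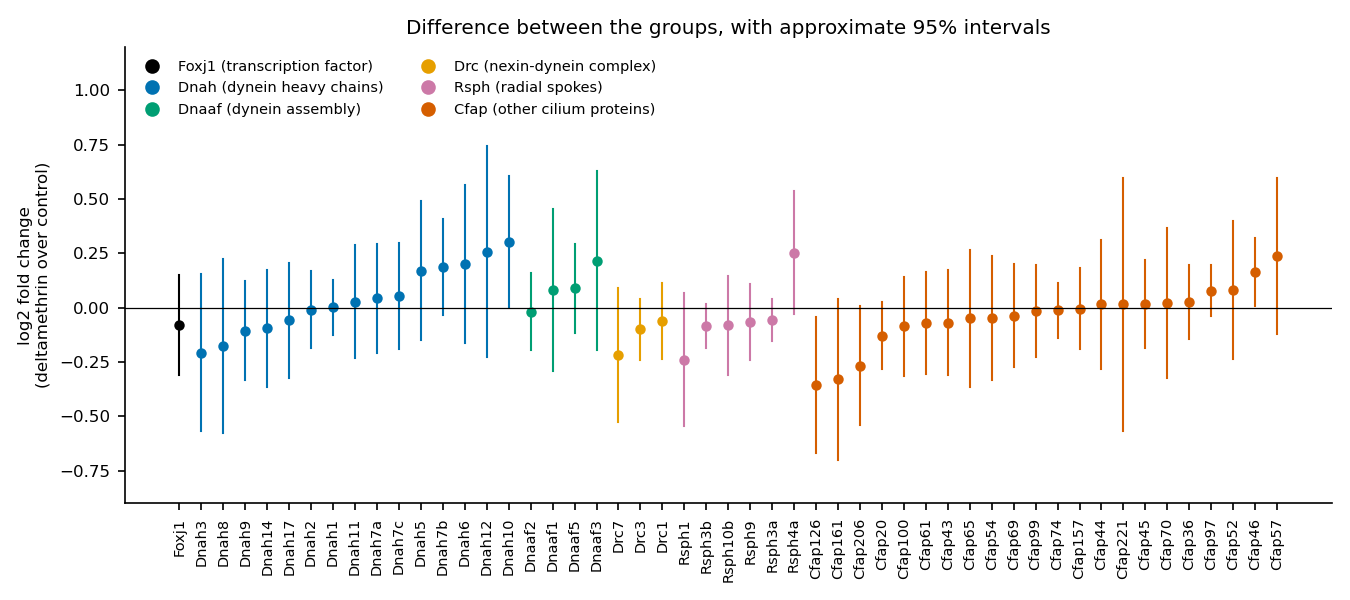
Log2 fold change, deltamethrin over control, of each tested motile cilium gene with its approximate 95% interval, grouped by family. The points scatter on both sides of 0 between -0.36 and 0.30, and 48 of the 51 intervals include 0.

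Foxj1 (ENSMUSG00000034227), on the minus strand of chromosome 11 at 116330704 to 116335399 (GRCm38), had 3.273 CPM in the lowest, 7.302 in the median and 8.605 in the highest control library. In the deltamethrin libraries it had 4.459, 6.677 and 8.975 CPM. The ranges overlapped almost wholly, and the lowest value of all belonged to control replicate 1. The means were 6.974 ± 1.466 CPM (SD, n = 13) and 6.596 ± 1.355 CPM (SD, n = 18). The log2 fold change was -0.08 ± 0.11 (SE, edgeR adjusted p = 0.873), with an interval from -0.308 to 0.149.

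Among the 15 dynein heavy chains, 9 had positive and 6 negative log2 fold changes, with a median of 0.03. Dnah10 (chromosome 5, 124725085 to 124834308, plus strand), an inner arm motor, had 0.9181, 1.711 and 2.462 CPM in the lowest, median and highest control library, and 1.309, 2.043 and 3.796 CPM in deltamethrin. Deltamethrin replicate 1 was the highest and control replicate 1 the lowest library, and 11 of 18 deltamethrin libraries were above the control median. Its log2 fold change was 0.30 ± 0.15 (SE, unadjusted p = 0.0471, edgeR adjusted p = 0.813). At the other end, Dnah3, also an inner arm motor, had 0.6048, 1.165 and 2.051 CPM in control and 0.6189, 0.9447 and 1.894 CPM in deltamethrin, with a log2 fold change of -0.21 ± 0.18. Of the exon bases of Dnah3, 10.5% overlap Lyrm1 on the opposite strand, and the use of strand in counting is not given in the sources used here. Dnah1 had nearly the same level in both groups, 8.265, 9.368 and 11.14 CPM in control and 7.97, 9.704 and 11.23 CPM in deltamethrin. The outer arm motors Dnah5 and Dnah9 had log2 fold changes of 0.17 ± 0.16 and -0.11 ± 0.11.

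Of the 4 assembly factors, 3 had positive fold changes and none passed an unadjusted p under 0.05. Dnaaf3 was at 0.2249, 0.4643 and 0.8699 CPM in control and 0.2326, 0.5802 and 1.042 CPM in deltamethrin, with a log2 fold change of 0.22 ± 0.20. Dnaaf2 was at 4.783, 6.234 and 7.84 CPM in control and 4.719, 5.974 and 7.894 CPM in deltamethrin, with a log2 fold change of -0.02 ± 0.09. The 2 groups covered almost the same range for both genes. Dnaaf2 shares 32.7% of its exon bases with 9330151L19Rik and Dnaaf1 shares 20.7% with Taf1c, whose median count of 265 was far above the 13 of Dnaaf1, so reads of these genes may not all be their own.

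All 3 regulatory complex genes and 5 of 6 tested radial spoke genes had negative fold changes, and none of these 9 passed an unadjusted p under 0.05. Drc7 (chromosome 8, 95055103 to 95078141, plus strand) had 1.734, 2.759 and 4.682 CPM in control and 1.229, 2.441 and 3.689 CPM in deltamethrin. The 3 highest libraries were controls, replicates 7, 9 and 11, and the 2 lowest were deltamethrin libraries. Its log2 fold change was -0.22 ± 0.15. Rsph1 (chromosome 17, 31255019 to 31277383, minus strand), a protein of the spoke head, had 1.192, 1.586 and 3.529 CPM in control and 1.037, 1.449 and 2.234 CPM in deltamethrin. Control replicates 2, 11 and 7 were the highest, and the log2 fold change of -0.24 ± 0.15 became -0.16 without control replicate 2. Rsph4a, another spoke head protein, had 1.08, 1.985 and 3.389 CPM in control and 1.687, 2.174 and 3.821 CPM in deltamethrin. Its log2 fold change was positive, 0.25 ± 0.14, the only positive one of the 6 spoke genes. Drc1 (-0.06 ± 0.09) and Rsph3b (-0.08 ± 0.05) had small fold changes with narrow errors.

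Among the 22 Cfap genes, 9 had positive and 13 negative fold changes. Cfap126 (chromosome 1, 171113918 to 171126967, plus strand), also called Flattop, which is known for basal body docking, had 0.7625, 1.237 and 1.873 CPM in control and 0.5442, 0.8657 and 1.662 CPM in deltamethrin. In 15 of 18 deltamethrin libraries it was below the control median. Its log2 fold change was -0.36 ± 0.15 (SE, unadjusted p = 0.0267, edgeR adjusted p = 0.813). Cfap46 (chromosome 7, 139600951 to 139683817, minus strand), a protein of the central apparatus, had 2.238, 3.155 and 4.118 CPM in control and 2.83, 3.441 and 4.425 CPM in deltamethrin, with 15 of 18 deltamethrin libraries above the control median. Its log2 fold change was 0.17 ± 0.08 (SE, unadjusted p = 0.0378, edgeR adjusted p = 0.813). Cfap57, with 0.232, 0.6296 and 0.9286 CPM in control and 0.4149, 0.6965 and 1.092 CPM in deltamethrin, had the highest log2 fold change of the family, 0.24 ± 0.18. Cfap36 differed by 0.03 ± 0.08, with control libraries from 64.86 to 99.12 CPM and deltamethrin libraries from 59.02 to 112.4 CPM.

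**Figure D3:**
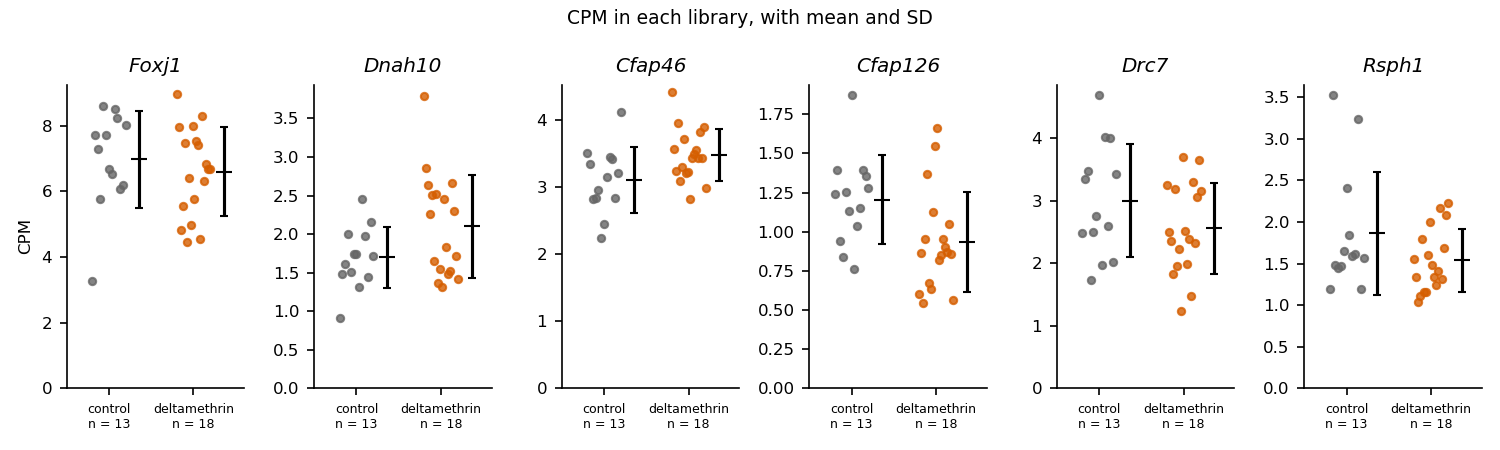
CPM in each library of the control and deltamethrin groups for motile cilium genes described in the text, with the mean and SD of each group beside the points. The groups overlap in every panel, with the higher mean in deltamethrin for Dnah10 and Cfap46 and in control for Cfap126.

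Summed over the set, the levels in the groups covered overlapping ranges. The summed CPM was 302.1, 331.7 and 410.3 in the lowest, median and highest control library and 291.3, 335.3 and 371.3 in deltamethrin. Without Cfap36, the sums were 234.9, 249.8 and 316.3 in control and 232.3, 249.1 and 275.3 in deltamethrin. The mean log2 CPM of the genes was 1.635 ± 0.1661 (SD) in control and 1.621 ± 0.1095 (SD) in deltamethrin.

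The label of a ventricular wall signal was then set against how the genes varied across the 31 libraries. They did not all move together: over 1275 pairs the median Pearson r of log2 CPM was 0.109, 95 pairs (7.45%) had r over 0.5 and 428 (33.6%) had r below 0. No such shares were computed for pairs of other genes. These counts therefore do not say whether the set moved together more than other genes. The highest r, 0.85, was that of the near-identical copies Rsph3a and Rsph3b, and the lowest, -0.771, that of Cfap97 and Cfap20. Against the mean of the other cilium genes, 16 of 51 (31.4%) had r over 0.5, beside 4.26% of the genes outside the set. The median r was 0.322 for the 51 and 0.015 for the genes outside the set. Of the 51, 8 had r below 0, and the share below 0 outside the set was not computed. The closest followers were Dnah2 (0.803) and Dnah9 (0.783), an inner and an outer arm motor, then Cfap44 (0.770), which tethers dynein heads, Dnah12 (0.661) and the central apparatus protein Cfap70 (0.634). The genes that followed it least were Cfap157 (-0.510), a basal body protein, Cfap97 (-0.317), Dnaaf5 (-0.216), Dnah1 (-0.144) and Rsph3a (-0.108). These values are descriptions: the points share libraries, and many of the genes had a median count under 50.

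Foxj1 was compared with each of the other genes from library to library. Its r with the mean of the other genes was 0.277, and the median of its r with 50 single genes was 0.081, above 0 in 36 of 50. No share above 0 is given here for the genes outside the set. Over 54 pairs tested by permutation (100000 resamples, two-sided, adjusted over the 54), 3 cilium genes of 50 passed. The same 3 were those with r over 0.5 (6% of the 50), beside 1.79% of the genes outside the set. Cfap65, a central apparatus protein, had r = 0.624 and rho = 0.557 (permutation p = 0.00019 and 0.00142, adjusted 0.0103 and 0.0256), 0.726 within control and 0.535 within deltamethrin, and 0.524 without the 2 libraries farthest from the Foxj1 median. Cfap70 had r = 0.560 and rho = 0.562 (permutation p = 0.00091 and 0.00131, adjusted 0.0246 and 0.0256), 0.586 and 0.547 within the groups and 0.576 without the 2 farthest. Drc7 had r = 0.521 and rho = 0.585 (permutation p = 0.00263 and 0.0007, adjusted 0.0473 and 0.0256), 0.289 within control, 0.706 within deltamethrin and 0.595 without the 2 farthest. Without control replicate 2, the count of genes that passed was 2 in place of 3. Foxj1 had r = 0.254 with the ependymal gene Ccdc153, 0.227 with Tmem212 and 0.33 with the choroid plexus gene Ttr. With Rfx3, the gene of an RFX factor, r was negative, -0.278. None of these marker pairs passed the test after adjustment.

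The level of the choroid plexus gene Ttr, which encodes the thyroid hormone carrier transthyretin, was compared with the same genes, because choroid plexus is attached to the ventricular wall. The mean of the 51 genes had r = 0.674 with Ttr, 0.594 without control replicate 2 and 0.565 after the mitochondrial rRNA share was removed from both. Of 51 genes tested one by one (permutation, 100000 resamples, two-sided, adjusted over the 51), 9 rose with Ttr across libraries at an adjusted p under 0.05 and none fell. No share over all genes is given for this test, only for r over 0.5 further below. Drc7 was closest: r = 0.819 and rho = 0.835 (permutation p = 1e-05 for both, the smallest that this number of resamples can give, adjusted 0.000255), 0.812 within control, 0.806 within deltamethrin and 0.816 without the 2 libraries farthest from the Ttr median. Rsph1 had r = 0.787 and rho = 0.746 (permutation p = 1e-05 for both, adjusted 0.000255), 0.783 and 0.755 within the groups and 0.703 without the 2 farthest. After removal of the mitochondrial rRNA share, r was 0.864 for Drc7 and 0.702 for Rsph1. The other 7 had r from 0.471 to 0.582: Dnah2, Dnah9, Cfap44, Cfap65, Cfap20, Rsph9 and Cfap206. Some of these rest largely on the 2 farthest libraries, control replicates 7 and 2: without them r fell from 0.581 to 0.324 for Dnah9, from 0.545 to 0.369 for Cfap44 and from 0.530 to 0.372 for Cfap20. The 9 were counted by r, and by rho Dnah9 and Cfap20 did not pass (permutation, adjusted p = 0.0878 for both). Within control and deltamethrin, r was 0.844 and 0.312 for Dnah2 and 0.795 and 0.329 for Dnah9. For Cfap65 it was 0.369 and 0.689, higher in deltamethrin. An r over 0.5 with Ttr was found in 7 of the 51 genes (13.7%), against 4.64% of the other genes. It was found in 3 without control replicate 2 and in 4 after removal of the mitochondrial rRNA share.

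**Figure D4:**
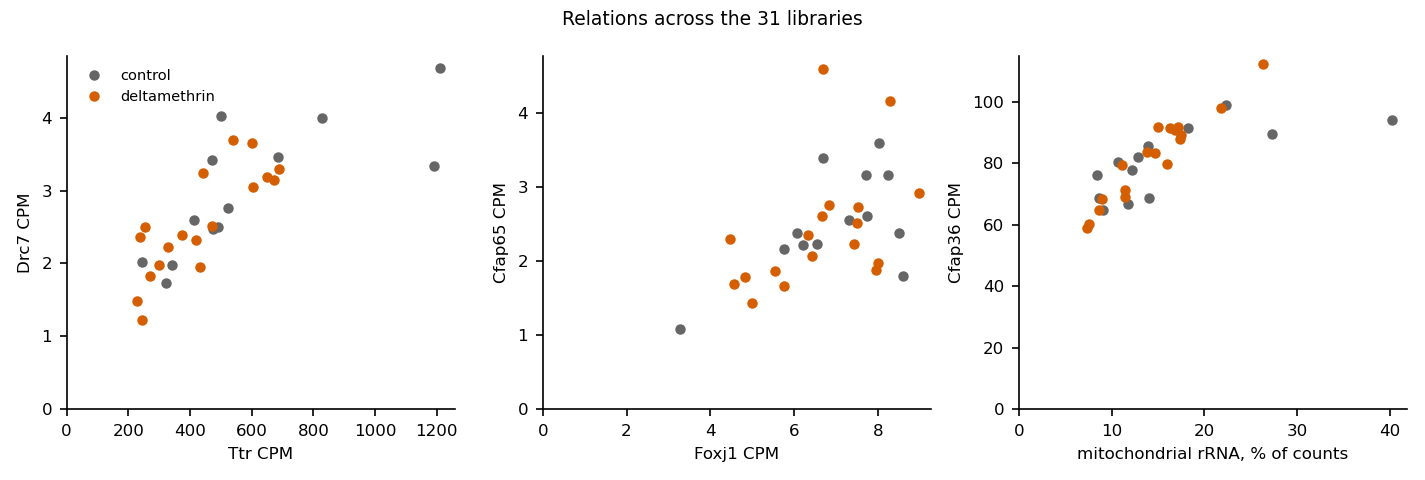
CPM of Drc7 against CPM of Ttr, Cfap65 against Foxj1, and Cfap36 against the mitochondrial rRNA share, 1 point per library. Drc7 climbs with Ttr in both groups (r = 0.812 in control and 0.806 in deltamethrin on the log2 scale), and control replicate 2 is the point at 40.24% in the right panel.

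The mitochondrial rRNA share also moved with members of the set. Across libraries 13 of the 51 genes had a positive and 4 a negative Pearson correlation with its log2 value at an adjusted p under 0.05 (permutation, adjusted over the 51). No share over all genes is given for this test. Rsph1, Dnah9, Cfap44 and Cfap20 were among the 13 and also among the genes that rose with Ttr. Ttr itself had r = 0.514 with the log2 share. By rho, Dnah7a, Dnah14 and Rsph1 did not pass (permutation, adjusted p = 0.149, 0.195 and 0.098). Some of the 13 rest largely on the 2 farthest libraries, control replicates 2 and 7. Without them r fell from 0.574 to 0.293 for Cfap61 and from 0.565 to 0.343 for Rsph1, while Dnaaf2 went from 0.638 to 0.687. Cfap36 had r = 0.849 and rho = 0.886 (permutation p = 1e-05 for both, adjusted 0.000127 and 0.000255), 0.767 within control, 0.967 within deltamethrin and 0.910 without the 2 farthest libraries. Cfap69 and Cfap54, both central apparatus proteins, had r of 0.777 and 0.738, and the opposite sign was found for Cfap157 (-0.696), Dnah10 (-0.606), Dnaaf5 (-0.574) and Cfap97 (-0.504). The r was over 0.5 in 21.6% of the 51 and in 22.2% of the other genes, and below -0.5 in 7.84% of the 51 and in 23% of the other genes. The mean of the set had r = 0.487 with the share, 0.317 without control replicate 2, and -0.511 with the total count. The part of the mitochondrial rRNA share in the group comparisons of Dnah10 and Cfap126 (r = 0.510) was not tested. With the share as a covariate no cilium gene passed an adjusted p under 0.05 by edgeR. None passed without the covariate either, so that fit cannot decide the question.

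**Figure D5:**
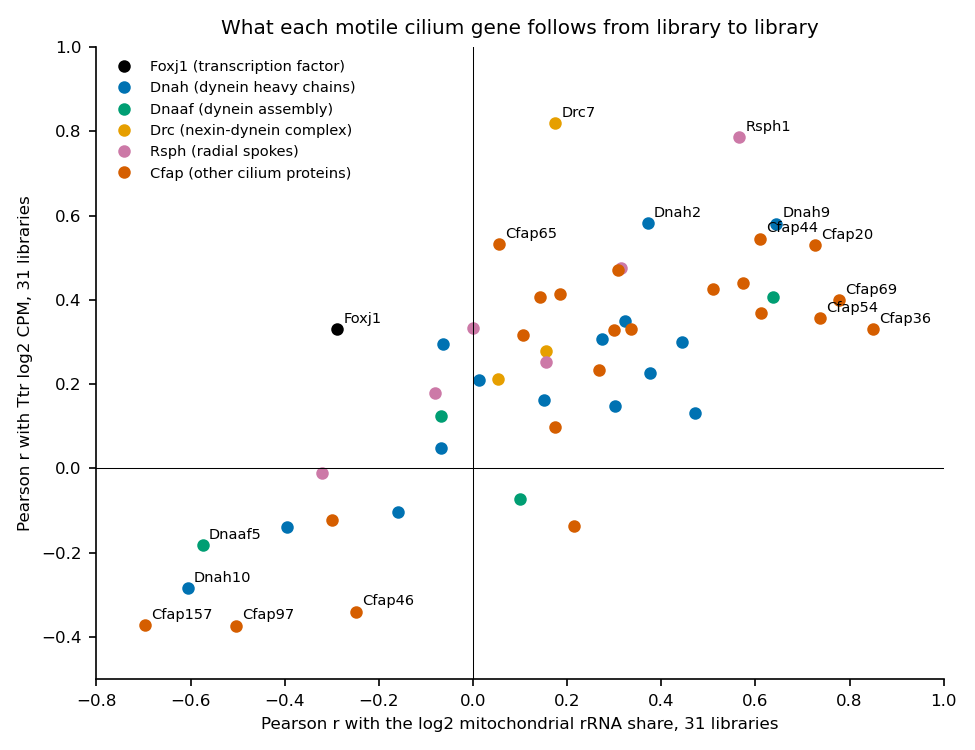
Pearson r of each tested motile cilium gene with Ttr (vertical axis) against its r with the log2 mitochondrial rRNA share (horizontal axis), over 31 libraries and coloured by family. Drc7 (0.819) and Rsph1 (0.787) lie highest, Cfap36 (0.849) farthest right and Cfap157 (-0.696) farthest left.

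Other genes of the same structures, listed by role, were read beside the set. For comparison, 4.37% of all genes tested passed an unadjusted p under 0.05 by edgeR, 2% as higher and 2.37% as lower. Of 60 axoneme and dynein assembly genes with other names, 50 were tested and 1 passed an unadjusted p under 0.05, none after adjustment: Hydin, a giant protein of the central apparatus, had 1.116, 1.477 and 2.631 CPM in control and 1.331, 1.749 and 3.871 CPM in deltamethrin, and its log2 fold change was 0.35 ± 0.15. The median of the 50 was -0.05. Of 18 tested ependymal markers outside the name rule, none passed in either direction. Their median was -0.14 and 15 of 18 were negative, beside 9663 of all 19529 genes. Markers of 1 cell type can vary together between libraries, so such sign counts are not separate results. Ccdc153 (-0.26 ± 0.22), Tmem212 (-0.14 ± 0.18) and Rarres2 (-0.24 ± 0.17) were among the 18. None of 16 tested genes of ciliogenesis and centriole amplification passed, with Ccno at -0.28 ± 0.14, Mcidas at -0.18 ± 0.21 and Rfx3 at 0.02 ± 0.11. Of 39 intraflagellar transport, Bardet-Biedl and primary cilium genes, which most brain cells use, 1 passed as lower, Ift43 at -0.19 ± 0.08, and the median was -0.01.

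Markers of neighbouring cell types gave the following values. Beside them, 2.37% of all genes tested were lower in deltamethrin and 2% higher at an unadjusted p under 0.05 by edgeR. All 16 choroid plexus markers were tested, and 3 were lower in deltamethrin at an unadjusted p under 0.05, none after adjustment: Folr1, a folate receptor, at -0.49 ± 0.20, Kcne2, a potassium channel subunit, at -0.53 ± 0.24, and Ttr at -0.46 ± 0.21. Kcne2 depended on 2 libraries, being -0.33 without control replicate 2 and -0.33 without control replicate 7, and was -0.23 in limma voom. Without control replicate 2, Folr1 was at -0.40 and Ttr at -0.34. The median of the 16 was -0.12 and 15 of 16 were negative, beside 9663 of all 19529 genes. As above, sign counts on 1 list are not separate results. Calml4 (-0.38 ± 0.21) is on this list and also among the ependymal markers. Its median was 2.117 CPM in control and 2.21 CPM in deltamethrin, and its highest control library had 6.823 CPM. The summed CPM of the 16 was 446.2, 756.6 and 1800 in the lowest, median and highest control library and 396, 682.2 and 953.4 in deltamethrin, and none of the markers was at 0. With the Ttr level as a covariate, the log2 fold changes of Drc7 and Rsph1 were -0.004 and -0.03 in place of -0.22 and -0.24. These were the 2 cilium genes with the highest r with Ttr, and Ttr was itself lower in deltamethrin. A shift towards 0 was therefore built into the choice of these genes, and no conclusion is drawn from it. Whether choroid plexus in the aliquots accounts for any difference between the groups was not tested. Of the tested markers, none of 4 for tanycytes, 8 for astrocytes, 6 for oligodendrocytes or 5 for blood passed an unadjusted p under 0.05, and 1 passed among 12 for subventricular progenitors (Sox11, 0.25 ± 0.09), 6 for microglia (Tmem119, -0.15 ± 0.06), 6 for endothelium (Cldn5, 0.21 ± 0.07), 7 for neurons (Gad2, 0.23 ± 0.11) and 6 for meningeal fibroblasts (Dcn, 0.29 ± 0.09). None of these passed after adjustment. All 5 blood markers had negative fold changes, with a median of -0.29. Their summed CPM had a median of 646.3 in control and 630.2 in deltamethrin, with 1670 in the highest control library. All 8 astrocyte markers had positive fold changes, with a median of 0.12. Over all genes, 9663 fold changes were negative and 9860 positive. The part of these markers in the results for the cilium genes was not tested.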

How the data were processed

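Counts per gene of mouse brain total RNA were compared between 13 control and 18 deltamethrin libraries, grouped by the agent in the labels. The authors deposited raw counts, whole numbers with no normalization. The submitters' processing notes name GRCm38, Trimmomatic, HISAT2, SAMtools and MultiQC, with no role or version. The counting tool, annotation and use of strand are not given in the sources used here. Gene IDs were matched to GENCODE M21 (48435 of 48795, 99.3%), which gave coordinates and exon lengths. Promoters came from RefSeq, GRCm38.p6. For 38 of the 42 genes with a promoter, bases after the start were found in a GENCODE transcript of the gene.

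In edgeR 4.0.16 (R 4.3.3), genes were kept by filterByExpr (minimum count 10, minimum total 15), which left 19529, scaled by TMM and compared with the quasi-likelihood F-test (robust, no covariates) with Benjamini-Hochberg adjustment over all of them. Fold changes are given as log2 of deltamethrin over control, with an SE equal to their size divided by the square root of F. The fit was tested on simulated data. CPM were computed on library sizes after TMM, with a prior count of 2 for log2 values. Total counts ran from 17570311 to 38680621 per library. Precision is lowest for the genes with a median count under 50, 16 of the 52 with the untested Rsph6a among them. Alternatives were DESeq2 1.42.0, limma voom 3.58.1, other filters and scaling, covariates, and leaving out each library.

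Genes named in the text were Foxj1, those with an unadjusted p under 0.05, the highest level and the extreme fold changes of each role, those next to the count threshold, up to 3 genes per other list with an unadjusted p under 0.05, the closest and least close followers of the set's mean, and up to 6 promoters. Other genes were named after their values were seen. The members and lists were chosen with earlier results of these data known, and the comparisons with Ttr and with mitochondrial rRNA were added after seeing the data.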

Additional observations from a re-analysis of the deposited data

How the results depend on the processing

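No paired analysis was possible because the numbers given to the samples mark no animal, litter or day shared by the groups. No gene of the whole table and no cilium gene had an adjusted p under 0.05 in any of the 9 alternatives or with any 1 library left out, and the smallest adjusted p of a cilium gene under any of these was 0.497. The counts at an unadjusted p under 0.05 did depend on the processing. Over all genes the count was 853, and 1948 without the count filter, 1796 with mitochondrial rRNA and 403 with Ttr as a covariate, and 526 to 1389 with 1 library left out. The 2 cilium genes that were higher became 1 without the count filter, with Ttr as a covariate and with the number in the sample title as a covariate. With 1 library left out that count ranged from 0 to 3: it was 0 without deltamethrin replicate 1 or 4 or control replicate 3, 6 or 11, and 1 without deltamethrin replicate 2, 3, 5, 7, 11, 15 or 16 or control replicate 1, 5, 8 or 13. The 1 gene that was lower became 0 at a mean count of at least 50, where Cfap126 was not tested, and with Ttr as a covariate, and 2 with mitochondrial rRNA as a covariate. Leaving out 1 library gave 0 to 3: 0 without control replicate 7, 3 without control replicate 8, and 2 without deltamethrin replicate 2, 5, 13 or 14 or control replicate 12 or 13. The median log2 fold change of the cilium genes lay between -0.04 and 0.004 with 1 library left out. It turned from -0.02 to 0.03 without scaling factors, where the median of all genes also moved from 0.001 to 0.04, and to 0.04 with Ttr as a covariate. Of 25 named genes, 215 of 220 fold changes under alternatives kept their direction. None passed the adjusted threshold in any setting. The 5 that changed sign were those of Dnaaf2, 0.0280 without scaling factors and 0.0417 with Ttr as a covariate, and of Dnah1, -0.0034 in limma voom, -0.0061 with mitochondrial rRNA and -0.0110 with Ttr as a covariate. With 1 library left out, 19 of 775 changed sign, in Dnaaf2 (-0.0412 to 0.0125), Dnah1 (-0.0146 to 0.0232) and Cfap36 (-0.0071 to 0.0532). Of the 10 genes most like the set's mean by Pearson r, 3 were also among the 10 by Spearman rho. Genes with r over 0.5 with Ttr numbered 7, 3 without control replicate 2 and 4 with mitochondrial rRNA removed. The cause of these changes was not tested.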

Other observations

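The genes outside the name rule whose log2 CPM was most like the mean of the motile cilium genes over the 31 libraries were, by Pearson r, Ccdc153 (0.785), an ependymal marker, and Spag16 (0.783), a central apparatus gene. They were followed by Pcdh15 (0.754), a cadherin known from the tip links of hair cells, Col8a2 (0.724), a collagen chain, Fam216b (0.721) and the homeobox gene Msx1 (0.721). The remaining 4 of the first 10 were 4930488L21Rik (0.714), Calml4 (0.703), Gm27019 (0.701) and Csmd1 (0.701). Some of these followed Ttr at least as closely, with r of 0.889 for Msx1, 0.873 for Calml4 and 0.772 for Col8a2, while Pcdh15 (0.353) and Csmd1 (0.334) did not. By Spearman rho, Col8a2 ranked first (0.740) and Ccdc153 fell to rank 22. Among these 10 genes, Msx1 alone had an unadjusted p under 0.05 between the groups, as 4.37% of all genes tested did. Its log2 fold change was -0.33 ± 0.15 (edgeR adjusted p = 0.813). These r have no test and include control replicate 2. All points share library depth and the mitochondrial rRNA share.

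Whole lists differed in how they followed the same mean. The choroid plexus and ependymal lists are not fully separate, since Calml4 is on both. The median r was 0.539 for 16 choroid plexus markers, of which 12 were over 0.5. It was 0.484 for 18 ependymal markers, of which 8 were over 0.5. For 50 axoneme and dynein assembly genes with other names it was 0.347, with 15 over 0.5, beside 0.322 for the 51 genes themselves. The set thus followed choroid plexus markers at least as closely as ependymal markers. Which cell type its transcripts came from was not tested. It was 0.042 for 39 intraflagellar transport, Bardet-Biedl and primary cilium genes. It was below 0 for markers of neurons (-0.412), oligodendrocytes (-0.388) and astrocytes (-0.364). The other lists had a median of 0.445 (5 blood markers), 0.207 (4 for tanycytes), 0.192 (16 genes of ciliogenesis), 0.094 (6 for meningeal fibroblasts), -0.026 (12 for subventricular progenitors), -0.179 (6 for endothelium) and -0.203 (6 for microglia). Over all other genes it was 0.015. All these medians include control replicate 2.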
